A study of Homo sapiens with 8 samples.

Results

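The enzymes that bring pyruvate into the mitochondrion, oxidise it and turn the tricarboxylic acid (TCA) cycle were followed across 4 groups of SK-N-MC libraries. They are 29 genes, chosen by name from the 60332 genes of the expression table, and they comprise the pyruvate carrier, pyruvate dehydrogenase, most enzymes of the cycle itself, the malic enzymes and the enzymes through which glutamine and other carbon enter or leave it. Of the 29 genes, 28 had at least 1 FPKM (fragment counts corrected for transcript length and library depth) in at least 2 of the 8 libraries and were tested. The exception was ME3, the mitochondrial NADP-linked malic enzyme, which was listed at 0 in all 8 libraries. The members and the related lists used for comparison were chosen with earlier results of these data known.

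SK-N-MC is an established Ewing sarcoma cell line driven by the fusion factor EWSR1-FLI1. All 8 libraries come from pools of stably transduced, puromycin-selected cells that carry dCas9-KRAB, a catalytically dead Cas9 joined to a transcriptional repressor. Control cells carried it with an empty vector, kept in normoxia (2 libraries) or in 1% oxygen for 16 h (2 libraries). In eKD1 and eKD2 cells, a guide RNA, different for each line, directed the repressor to the GGAA-repeat enhancer of LOXHD1, and both lines were kept in 1% oxygen for 16 h (2 libraries each). No eKD library from normoxia was analysed here, so the effect of hypoxia was measured in control cells alone. Each eKD line is 1 polyclonal pool made with 1 guide, so effects of the enhancer and effects of that guide or pool cannot be told apart within a line.

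LOXHD1 checked the labels, with 156 and 169 FPKM in normoxic control cells, 93.0 and 91.1 in hypoxic control cells, 17.3 and 15.0 in eKD1 and 11.7 and 11.8 in eKD2. All 9 Ewing sarcoma markers examined (CD99, NKX2-2, FLI1, EWSR1, STEAP1, NR0B1, PRKCB, CCND1 and LIPI) passed the filter. They moved with the groups. In hypoxia 7 of the 9 were called lower and CD99 higher (median log2 change -0.67), against 16% and 16.2% of all tested genes. In eKD2 against control NR0B1, LIPI and CCND1 were called higher and CD99 lower, against 5.8% and 3.81% of all tested genes. The part of these markers in the results was not tested. Of other cell types, MYOD1, a muscle regulator, reached at most 0.79 FPKM. EPCAM, an epithelial marker, lay between 3.39 and 5.80 FPKM. PTPRC, the leukocyte antigen CD45, lay between 4.87 and 23.8 FPKM and moved with the groups, highest in normoxia and lowest in hypoxic control cells. Its log2 change was -1.98 in hypoxia and 1.28 in eKD2 against control. Of the 2 other-cell-type markers tested, 1 was called lower in hypoxia and 1 higher in eKD2 against control. The part of PTPRC in the results was not tested. In bulk RNA, fewer cells of a type and less RNA per cell cannot be told apart. The 29 genes together made up 0.264 to 0.291% of the summed FPKM of a library.

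Pyruvate made by glycolysis crosses the inner mitochondrial membrane through the MPC1-MPC2 carrier and is then either oxidised to acetyl-CoA by the pyruvate dehydrogenase complex or carboxylated to oxaloacetate by pyruvate carboxylase. Citrate synthase joins acetyl-CoA and oxaloacetate, and the following dehydrogenases release carbon dioxide and reduce NAD, which feeds the respiratory chain. In low oxygen, the transcription factor HIF-1 is known to induce the kinase PDK1, which phosphorylates and inactivates pyruvate dehydrogenase, and lactate dehydrogenase A, which turns pyruvate into lactate instead.

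The members spanned a wide range of levels on the FPKM scale, which is corrected for transcript length. In the libraries, the highest member had between 328 and 446 FPKM, and this was MDH1, the cytosolic malate dehydrogenase, in 7 of the 8 and PDHA1 in the remaining one. The lowest member above 0 had between 2.85 and 5.10 FPKM. At least 23 of the 29 genes were at 20 FPKM or more in every library.

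**Figure D1:**
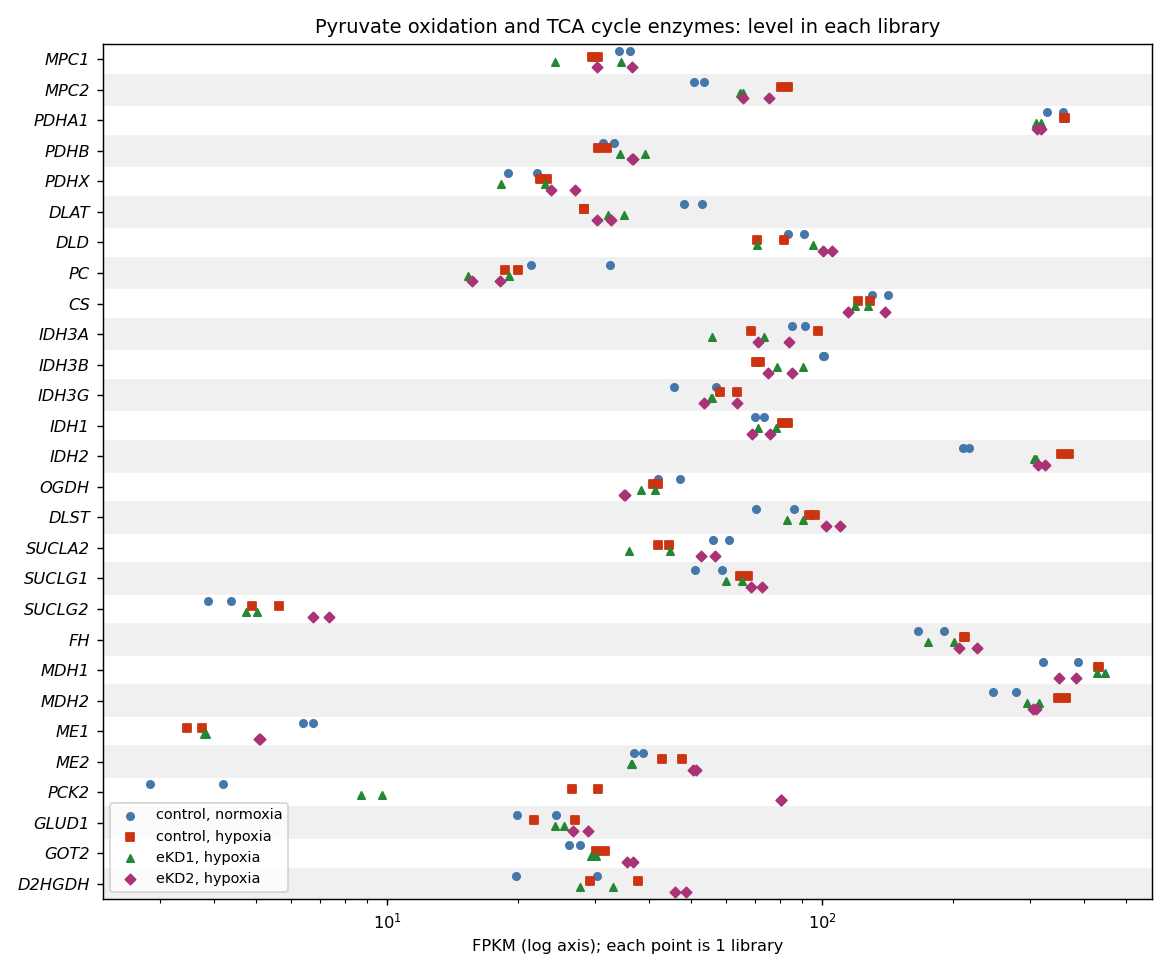
FPKM of the 28 expressed enzyme genes (rows) on a logarithmic horizontal axis; each point is 1 library, with colour and symbol giving its group (2 libraries per group). For most genes the points of the 4 groups lie close together, whereas those of PCK2 spread from 2.85 FPKM in a normoxic control library to 80.3 FPKM in the eKD2 libraries.

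The first comparison asked how 16 h of hypoxia changed these enzymes in control cells. PCK2, the mitochondrial phosphoenolpyruvate carboxykinase that converts oxaloacetate to phosphoenolpyruvate, rose to 811% of its normoxic mean. IDH2 (the mitochondrial NADP-linked isocitrate dehydrogenase), MPC2 (a carrier subunit) and MDH2 (the mitochondrial malate dehydrogenase) also rose, to between 135 and 169%. DLAT, ME1, IDH3B and SUCLA2, which are subunits of pyruvate dehydrogenase, of NAD-linked isocitrate dehydrogenase and of succinyl-CoA ligase and the cytosolic malic enzyme, fell to between 54.7 and 73.5%. The other 20 tested members did not pass the test.

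These 8 calls (limma, Benjamini-Hochberg adjusted p under 0.05 over all 15372 genes tested) made up 28.6% of the 28 tested members, while 32.2% of all tested genes were called in this comparison. By direction, 4 members were higher against 16.2% of all genes and 4 were lower against 16% of all genes. The share of members called was therefore near that of the whole table. An unadjusted p under 0.05 was reached by 12 members and by 45.9% of all genes. The 2 hypoxic values lay above both normoxic values for 15 members (35.9% of all genes) and below both for 8 (34.5% of all genes). The median log2 change was 0.17 over the members and 0.01 over all genes tested.

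**Figure D2:**
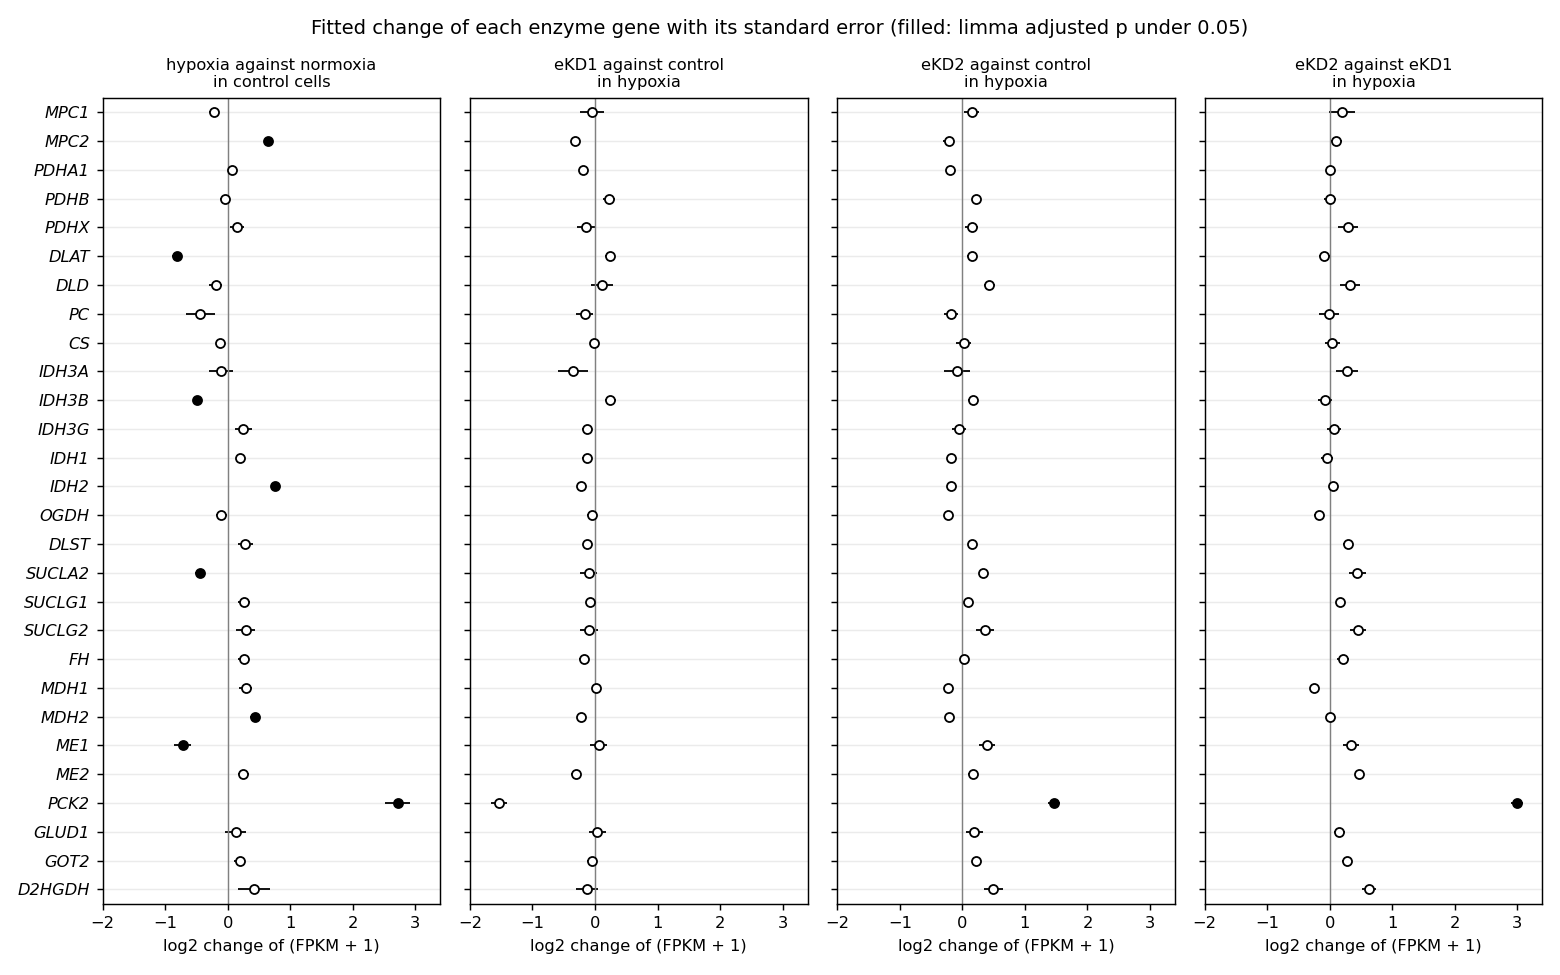
Fitted log2 change of FPKM + 1 (horizontal axis) for each enzyme gene (rows) in the 4 comparisons (panels), with bars of 1 standard error from limma and filled symbols for adjusted p under 0.05. Hypoxia has 8 filled symbols on both sides of 0, eKD1 against control has none, and the remaining 2 panels have 1 each, PCK2.

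At the carrier, the 2 subunits differed in their response. MPC2 had 50.7 and 53.6 FPKM in normoxia and 80.3 and 83.6 in hypoxia (log2 change 0.64 ± 0.07 SE, limma adjusted p = 0.0106). The groups were well separated, with both hypoxic values above 80. MPC1, its obligate partner, had 34.1 and 36.0 FPKM in normoxia and 30.5 and 29.5 in hypoxia, a lower level that did not pass the test (log2 change -0.22 ± 0.08 SE, limma adjusted p = 0.107). The ratio of MPC2 to MPC1 was 1.49 in both normoxic libraries and 2.63 and 2.83 in the hypoxic ones. DCAF6, a gene on the opposite strand that overlaps MPC2, reached at most 21.3 FPKM, and the library kit does not keep strand.

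Within the pyruvate dehydrogenase complex only DLAT, the dihydrolipoyl acetyltransferase core, was called. DLAT had 52.8 and 48.2 FPKM in normoxia and 28.3 in both hypoxic libraries (log2 change -0.81 ± 0.08 SE, limma adjusted p = 0.0101). PDHA1 and PDHB, the decarboxylase subunits, differed little: PDHA1 had 328 and 359 FPKM in normoxia and 360.2 and 361 in hypoxia, and PDHB had 33.2 and 31.3 in normoxia and 32.1 and 30.5 in hypoxia. PDHX, which anchors the dehydrogenase, had a log2 change of 0.15 ± 0.11 SE, and DLD, the dihydrolipoyl dehydrogenase shared with other complexes, one of -0.19 ± 0.10 SE. LAMB1, which overlaps DLD on the opposite strand, had 229 and 223 FPKM in normoxia and 129 and 158 in hypoxia. The part of LAMB1 in the DLD values was not tested. The level of PDHA1 was 6.21 and 7.44 times that of DLAT in normoxia and 12.7 and 12.8 times in hypoxia. PC, pyruvate carboxylase, had 32.6 and 21.4 FPKM in normoxia and 18.6 and 19.99 in hypoxia, a difference that was not called (limma adjusted p = 0.225). With 1 library left out, its log2 change ranged from -0.73 to -0.14. A gene that overlaps PC on the opposite strand was also lower in both hypoxic libraries than in both normoxic ones. The part of that gene in the PC values was not tested.

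The promoters of PCK2, DLAT and IDH3B are shown because PCK2 had the largest changes of all members and because DLAT and IDH3B fell while other subunits of their complexes were not called. They are RefSeq sequences of GRCh38.p14, from 250 bases before to 50 after the annotated start, on the gene's strand and read 5′ to 3′, at chr14:24094061-24094360 (PCK2, plus strand), chr11:112025158-112025457 (DLAT, plus strand) and chr20:2664167-2664466 (IDH3B, minus strand). Capitals mark ACGTG or GCGTG on either strand, the core bound by hypoxia-inducible factors.
PCK2: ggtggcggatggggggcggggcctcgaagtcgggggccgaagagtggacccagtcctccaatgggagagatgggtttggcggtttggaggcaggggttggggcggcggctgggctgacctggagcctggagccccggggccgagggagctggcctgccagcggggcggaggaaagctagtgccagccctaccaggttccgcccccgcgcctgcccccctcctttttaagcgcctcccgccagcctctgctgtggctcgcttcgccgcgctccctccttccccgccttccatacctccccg
DLAT: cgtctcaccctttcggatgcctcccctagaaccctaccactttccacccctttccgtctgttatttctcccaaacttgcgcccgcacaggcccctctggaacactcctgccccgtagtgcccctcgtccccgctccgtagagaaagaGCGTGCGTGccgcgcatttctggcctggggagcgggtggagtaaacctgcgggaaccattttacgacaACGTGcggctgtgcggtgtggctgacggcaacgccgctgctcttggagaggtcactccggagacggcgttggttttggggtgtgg
IDH3B: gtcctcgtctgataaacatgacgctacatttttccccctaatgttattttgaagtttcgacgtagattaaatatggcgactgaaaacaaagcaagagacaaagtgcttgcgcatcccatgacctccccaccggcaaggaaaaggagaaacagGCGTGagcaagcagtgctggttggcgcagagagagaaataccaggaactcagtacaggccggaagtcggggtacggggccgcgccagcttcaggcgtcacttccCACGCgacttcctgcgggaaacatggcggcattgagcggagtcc

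The PCK2 window holds neither ACGTG nor GCGTG on either strand, the DLAT window holds 3 matches and the IDH3B window holds 2. SUCLA2 was also called lower in hypoxia while other subunits of its enzyme were not called. Its window, not printed, holds 0 matches. Of the other members called in hypoxia, the ME1 window holds 2 matches and the MDH2 window 0. A promoter was found in the table for 28 of the 29 members (none for OGDH), and 64.3% of them held at least 1 of the motifs, against 64.0% of the 9967 promoters of tested genes. The windows of IDH2 (1 match) and MPC2 (none) may start from a transcript other than the main one, and without them the share was 65.4% of 26. TGATGNAA, a core of the response element bound by ATF4 with C/EBP factors, was searched on both strands and was in none of the member promoters and in 1.68% of those of tested genes. Of the related genes, PDK1, which HIF-1 is known to induce, had 0 ACGTG or GCGTG matches in its window and PSAT1 had 1. Neither window held TGATGNAA. A window can thus lack the core in a gene that HIF-1 is known to induce. These matches describe letters in a short window, and no binding was measured.

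Among the isocitrate dehydrogenases, IDH2 rose from 211 and 218 FPKM in normoxia to 355 and 369 in hypoxia (log2 change 0.75 ± 0.05 SE, limma adjusted p = 0.0072). Its cytosolic counterpart IDH1 had 69.9 and 73.3 FPKM in normoxia and 83.3 and 80.8 in hypoxia, a smaller difference that was not called (limma adjusted p = 0.0828). The ratio of IDH2 to IDH1 was therefore 3.02 and 2.97 in normoxia and 4.26 and 4.56 in hypoxia. NAD-linked isocitrate dehydrogenase, the form that works in the cycle, is built from IDH3A, IDH3B and IDH3G. IDH3B fell from 100.5 and 101 FPKM to 70.5 and 71.8 (log2 change -0.50 ± 0.05 SE, limma adjusted p = 0.0109), whereas the regulatory subunit IDH3G had 45.7 and 57.0 FPKM in normoxia and 58.3 and 63.7 in hypoxia (adjusted p = 0.232). IDH3A, the catalytic subunit, had 85.2 and 91.1 FPKM in normoxia and 68.7 and 97.7 in hypoxia, so its hypoxic libraries spanned the normoxic ones. SSR4, which overlaps IDH3G on the opposite strand, had 276 and 303 FPKM in normoxia and 357 and 342 in hypoxia. The library kit does not keep strand, and the part of SSR4 in the IDH3G values was not tested.

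Succinyl-CoA ligase pairs the shared alpha subunit SUCLG1 with SUCLA2, which makes the ADP-linked form, or with SUCLG2, which makes the GDP-linked form. SUCLA2 had 56.2 and 61.1 FPKM in normoxia and 41.8 and 44.4 in hypoxia (log2 change -0.43 ± 0.08 SE, limma adjusted p = 0.0284). This call was lost in each of the 4 fits that left out 1 of the compared libraries while keeping all others in the fit (adjusted p from 0.0648 to 0.130), with a replicate block (adjusted p = 0.0556) and without the variance trend (adjusted p = 0.0519). SUCLG1 had 50.9 and 58.8 FPKM in normoxia and 64.8 and 67.4 in hypoxia, and SUCLG2 had 4.38 and 3.88 in normoxia and 4.89 and 5.64 in hypoxia, neither called. SUCLA2 stayed above SUCLG2 in every library, by 12.8 and 15.8 times in normoxia and 8.56 and 7.86 times in hypoxia.

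Among the remaining members that act in the cycle itself, the mitochondrial malate dehydrogenase was the only call. MDH2 had 248 and 278 FPKM in normoxia and 349 and 363 in hypoxia (log2 change 0.44 ± 0.07 SE, limma adjusted p = 0.0249). MDH1, its cytosolic counterpart, had 322 and 388 FPKM in normoxia and 434 and 429.7 in hypoxia, which was higher in both libraries without passing the test (adjusted p = 0.111). FH, fumarase, had a log2 change of 0.26 ± 0.08 SE (adjusted p = 0.0895). CS, citrate synthase, OGDH and DLST, the decarboxylase and core subunits of oxoglutarate dehydrogenase, had log2 changes from -0.12 to 0.28 with no call. Setting the libraries to equal FPKM totals instead shifted the median log2 change of all genes to -0.19, ended the call of MDH2 (adjusted p = 0.113, and 0.0587 without the variance trend) and called CS, MPC1 and DLD lower, while the other 7 calls were kept. PDHA1, PDHX, IDH1, GLUD1 and GOT2, none of them called, then turned from higher to lower, and the share of higher genes among all called genes went from 50.3% to 28.4%.

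Enzymes around the cycle held both the largest rise and the second largest fall. PCK2 had 2.85 and 4.19 FPKM in normoxia and 26.6 and 30.6 in hypoxia (log2 change 2.72 ± 0.20 SE on the FPKM + 1 scale, limma adjusted p = 0.0081). Its rank among the 15372 genes tested, counted from the largest rise, was 87. ME1, which makes cytosolic NADPH from malate, went the other way, from 6.76 and 6.41 FPKM to 3.47 and 3.74 (log2 change -0.72 ± 0.13 SE, limma adjusted p = 0.0293). The call of ME1 was lost without the filter on low values (adjusted p = 0.0710) and with a replicate block (adjusted p = 0.0755). ME2, the mitochondrial malic enzyme, had 36.8 and 38.8 FPKM in normoxia and 47.6 and 42.9 in hypoxia and was not called (adjusted p = 0.104), so ME2 was at 5.45 and 6.05 times ME1 in normoxia and at 13.7 and 11.4 times in hypoxia. GLUD1 and GOT2, which make oxoglutarate from glutamate, had log2 changes of 0.13 ± 0.17 SE and 0.19 ± 0.08 SE. D2HGDH, which oxidises D-2-hydroxyglutarate to oxoglutarate, had 19.8 and 30.4 FPKM in normoxia and 37.7 and 29.2 in hypoxia, and these values overlapped.

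**Figure D3:**
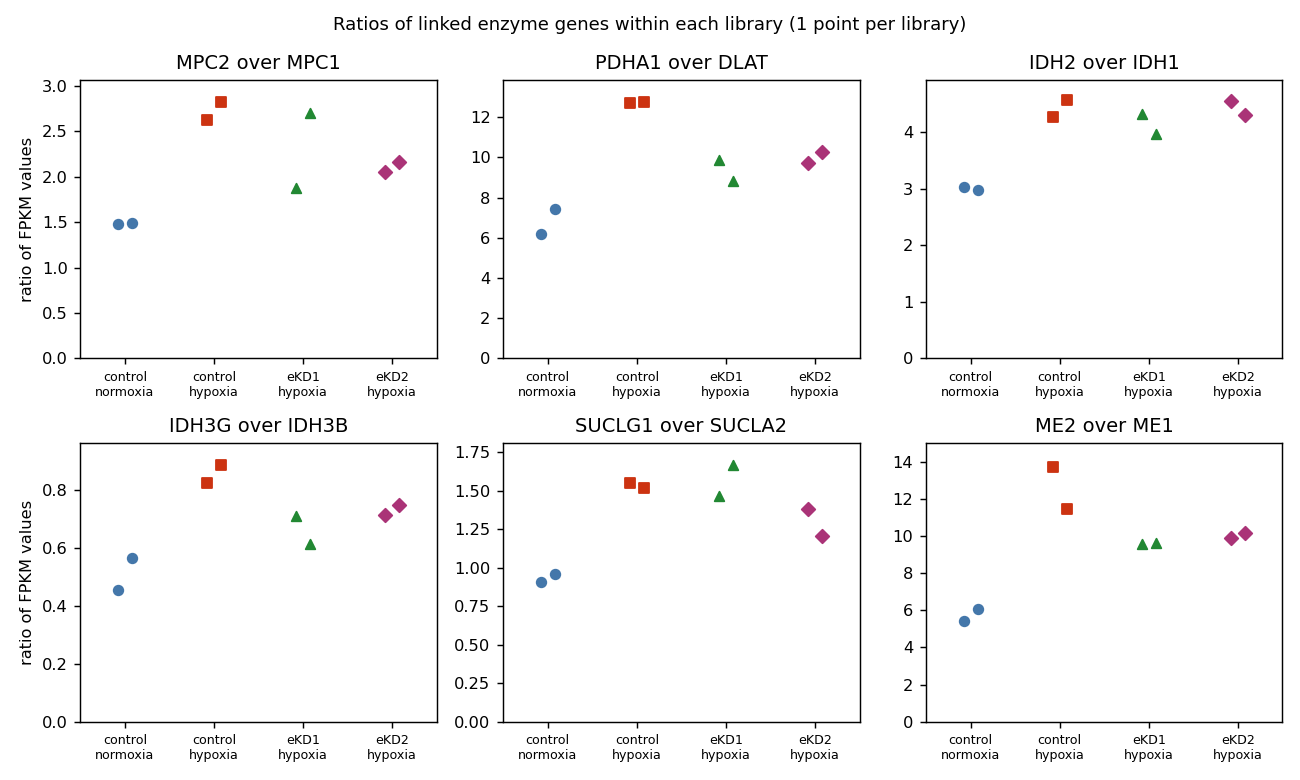
Ratios of the FPKM values of linked enzyme genes within a library (vertical axis, from 0); each point is 1 library and the 4 groups stand side by side. Each plotted ratio has a member called higher in hypoxia on top or a member called lower in hypoxia below. That all 6 are higher in hypoxic than in normoxic control libraries follows from this choice. Other ratios fell, such as SUCLA2 over SUCLG2, from 12.8 and 15.8 to 8.56 and 7.86. MPC2 over MPC1 went from 1.49 and 1.49 to 2.63 and 2.83. IDH3G over IDH3B went from 0.455 and 0.565 to 0.827 and 0.887, and SSR4 overlaps IDH3G on the opposite strand. The ratios are given as a description, with no test.

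Around these enzymes, 51 genes of linked pathways were listed and 45 of them tested. In hypoxia, 15 were called higher and 3 lower, where 16.2% and 16% of all tested genes were called. All 5 genes of the lactate branch were higher, and LDHA, the lactate dehydrogenase subunit named above, went from 1285 and 1316 FPKM to 6018 and 5842. LDHA was at 3.91 and 3.67 times PDHA1 in normoxia and at 16.7 and 16.2 times in hypoxia. Of 6 pyruvate dehydrogenase kinases and phosphatases tested, 2 were higher: PDK1, from 3.01 and 2.33 FPKM to 70.7 and 76.1 (log2 change 4.35 ± 0.14 SE, limma adjusted p = 0.0041), and PDK3, from 3.25 and 3.07 FPKM to 14.4 and 13.0 (log2 change 1.82, adjusted p = 0.0081).

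The other lists moved less uniformly in hypoxia. The remaining TCA cycle genes, which include the succinate dehydrogenase subunits, had 1 of 8 called higher, SDHA (log2 change 0.59), and 2 of 4 succinate dehydrogenase assembly factors were higher, SDHAF1 and SDHAF4. Among glutamine and transaminase enzymes, 2 of 5 were higher, among them PSAT1 (log2 change 0.96), the phosphoserine aminotransferase of serine synthesis. The list of mitochondrial metabolite carriers also holds SLC1A5, a glutamine transporter. This list went both ways, with 3 of 7 higher (SLC25A1, SLC25A10 and SLC25A11) and 2 lower, SLC25A12 (log2 change -0.61) and SLC25A13 (-1.41), the aspartate-glutamate carriers. ACLY, the cytosolic ATP-citrate lyase, was the 1 of 5 cytosolic and acetyl-CoA enzymes called, and it was lower (log2 change -0.70). None of the 5 lipoylation genes was called by limma, and 0 had an unadjusted p under 0.05.

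The second comparison set eKD1 against control cells in hypoxia. No member was called by limma in this fit, in which 0.0651% of all genes were called in either direction and 0.052% lower. PCK2 had the largest difference: 9.71 and 8.72 FPKM in eKD1 against 26.6 and 30.6 in hypoxic control cells, or 32.3% of the control mean (log2 change -1.53 ± 0.12 SE, limma adjusted p = 0.102). Both eKD1 values lay well below both control values and above the normoxic ones. The difference was called when all 8 libraries shared 1 fit (adjusted p = 0.0137, with 2.06% of all genes called lower) and when protein-coding genes alone were tested (adjusted p = 0.0422, with 0.629% called lower).

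The next largest negative differences in eKD1 were far smaller. IDH3A had 73.3 and 55.7 FPKM in eKD1 against 68.7 and 97.7 in control (log2 change -0.36 ± 0.24 SE, limma adjusted p = 0.455), which overlap. MPC2 had 64.8 and 65.8 FPKM against 80.3 and 83.6 (log2 change -0.32 ± 0.06 SE, adjusted p = 0.120). The largest positive differences were those of IDH3B, with 78.6 and 90.5 FPKM against 70.5 and 71.8, of DLAT, with 32.2 and 35.1 against 28.3 in both, and of PDHB, with 39.1 and 34.3 against 32.1 and 30.5, and none was called (log2 changes 0.24, 0.24 and 0.22). An unadjusted p under 0.05 was reached by 7 members and by 21.7% of all genes. The groups did not overlap for 4 members that were higher (27.6% of all genes) and 10 that were lower (26% of all genes), and the median log2 change was -0.12 over the members and 0.00 over all genes. Of the 45 related genes tested, 0 were called by limma in this fit and 12 had an unadjusted p under 0.05. PDK1 had 75.1 and 81.2 FPKM in eKD1 against 70.7 and 76.1 in control.

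In the third comparison, eKD2 against control cells in hypoxia, PCK2 was the only member called. It had 80.3 FPKM in both eKD2 libraries against 26.6 and 30.6 in control, or 281% of the control mean (log2 change 1.46 ± 0.09 SE, limma adjusted p = 0.0273). The call was lost without the filter on low values (adjusted p = 0.0564), without the variance trend (adjusted p = 0.0535) and with a replicate block (adjusted p = 0.0925). These 3 fits called 0.0995%, 0.182% and 0% of all genes. In the main fit 9.61% of all tested genes were called in either direction and 5.8% higher. The 1 call among 28 members is below the share of the whole table. Among all called genes, 60.3% were higher, against 77.5% with equal FPKM totals and 46.3% after median-of-ratios rescaling. An unadjusted p under 0.05 was reached by 12 members and 32.8% of all genes. The groups did not overlap for 14 members that were higher (35.8% of all genes) and 8 that were lower (26.4% of all genes), and the median log2 change was 0.15 over the members and 0.05 over all genes.

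Several members had differences in eKD2 that stayed short of the threshold. D2HGDH had 48.6 and 45.8 FPKM in eKD2 against 37.7 and 29.2 in control (log2 change 0.50 ± 0.15 SE, limma adjusted p = 0.115), and DLD had 105 and 101 against 81.8 and 70.8 (log2 change 0.43 ± 0.09 SE, adjusted p = 0.0697). Both lay above the control values in each library, and DLD was called with equal FPKM totals or with protein-coding genes alone. LAMB1, a laminin gene on the opposite strand that overlaps DLD, had 170 and 188 FPKM in eKD2 against 129 and 158 in control. The largest negative differences were those of MDH1, with 351 and 383 FPKM against 434 and 429.7 (adjusted p = 0.0872), of OGDH, with 35.2 and 35.1 against 42.0 and 40.7 (adjusted p = 0.104), and of MPC2, with 75.3 and 65.8 against 80.3 and 83.6 (adjusted p = 0.194).

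Of the 45 related genes tested, 3 were called higher in eKD2 and 3 lower, where 5.8% and 3.81% of all tested genes were called. PSAT1 had 401 and 405 FPKM against 178 in both control libraries (log2 change 1.17 ± 0.04 SE, limma adjusted p = 0.0119). PDK1 had 137 and 123 FPKM against 70.7 and 76.1 (log2 change 0.81 ± 0.08 SE, adjusted p = 0.0305), and SLC1A5, a glutamine transporter, had a log2 change of 0.76 (adjusted p = 0.0435). The genes called lower were LDHB, PKM and SDHA, with log2 changes of -0.42, -0.42 and -0.35.

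The fourth comparison set the lines against each other, since eKD1 and eKD2 differ from the same control libraries and their values against control are not independent. PCK2 was again the only member called: 80.3 FPKM in both eKD2 libraries and 9.71 and 8.72 in eKD1 (log2 change 2.99 ± 0.09 SE, limma adjusted p = 0.0205). In this fit 0.403% of all genes were called in either direction and 0.286% higher, and the rank of PCK2 from the largest rise was 47. The call was lost with a replicate block (adjusted p = 0.207) and without the variance trend (adjusted p = 0.0527). With the block 0 of the 15372 genes were called, and 0.207 was the smallest adjusted p of any gene. Without the trend 0.0325% of all genes were called. The order of PCK2 levels was therefore normoxic control, eKD1, hypoxic control and eKD2, at 3.52 ± 0.949, 9.21 ± 0.698, 28.6 ± 2.83 and 80.3 ± 0.0055 FPKM (mean ± SD, n = 2 each), with no overlap between neighbours. Mean PCK2 was 262% of the normoxic mean in eKD1 and 2280% of it in eKD2. NRL, which overlaps PCK2 on the other strand, had at most 1.46 FPKM.

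The other differences between the lines were not called. ME2 had 50.4 and 51.4 FPKM in eKD2 and 36.4 in both eKD1 libraries (log2 change 0.47 ± 0.06 SE, limma adjusted p = 0.0830), and was called with all 8 libraries in 1 fit (adjusted p = 0.0208). D2HGDH had 48.6 and 45.8 FPKM against 27.7 and 33.0 (log2 change 0.62 ± 0.12 SE, adjusted p = 0.106). The largest negative differences were those of MDH1 (log2 change -0.25), OGDH (-0.17) and DLAT (-0.09). An unadjusted p under 0.05 was reached by 8 members and by 23.6% of all genes. The groups did not overlap for 14 members that were higher in eKD2 (31.9% of all genes) and 2 that were lower (23.3% of all genes), with a median log2 change of 0.16 over the members and 0.05 over all genes. Among the related genes only PSAT1 was called, with 401 and 405 FPKM in eKD2 and 96.6 and 101 in eKD1 (log2 change 2.02 ± 0.05 SE, adjusted p = 0.0156).

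**Figure D4:**
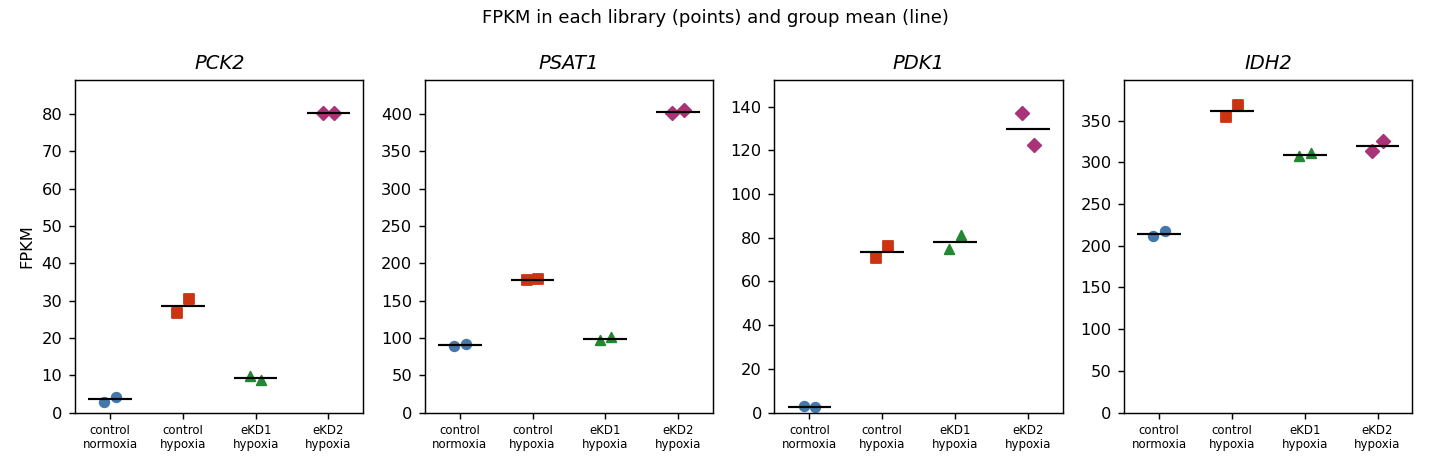
FPKM (vertical axis, from 0, its own scale in each panel) of PCK2, PSAT1, PDK1 and IDH2 in each library (points) with the mean of each group (line, n = 2). The values of PCK2 and PSAT1 in eKD1 lie below those of hypoxic control cells and those in eKD2 are the highest, at 80.3 FPKM and at 401 and 405 FPKM, while IDH2 lies between 307 and 369 FPKM in all 6 hypoxic libraries.

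For 7 of the 8 members called in hypoxia, the eKD values are set here beside those of the control libraries; they are compared with the same hypoxic control libraries that entered those calls, and are given as a description. IDH2 had 307 and 311 FPKM in eKD1 and 314 and 326 in eKD2, between 218 in normoxia and 355 in hypoxia. MDH2 had 295 and 316 FPKM in eKD1 and 305 and 309.7 in eKD2, also between the control groups, and so were the MPC2 values given above, from 64.8 to 75.3 FPKM. DLAT lay between 30.4 and 35.1 FPKM and IDH3B between 75.0 and 90.5 FPKM over the 4 eKD libraries, again between the control groups. ME1 had 3.82 and 3.78 FPKM in eKD1 and 5.10 and 5.06 in eKD2. SUCLA2 had 52.5 and 56.7 FPKM in eKD2, and 44.6 and 35.9 in eKD1, of which the second lay below both hypoxic control values. None of these 7 genes was called against hypoxic control cells in either line, except that IDH2 was called lower in both lines with all 8 libraries in 1 fit (adjusted p = 0.0487 and 0.0482), and MDH2 in eKD2 under 3 of the alternatives.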

How the data were processed

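RNA was measured in 8 libraries of SK-N-MC cells, grouped by the sample titles into 4 groups of 2, which the study describes as biological duplicates. Per the labels and the study's methods, the authors sequenced poly-A selected, unstranded libraries as single-end reads, aligned them to GRCh37 with STAR, and computed the deposited FPKM values with cufflinks and cuffnorm. The study's own count tests (DESeq2) were not used here. The table has 60332 genes and per-library totals of 865107 to 1041460 FPKM. Read totals were not used here. The FPKM worth of a single read, compared between libraries over genes with low values, put relative depth at 55.7 to 100% of the deepest library (hypoxic control replicate 1), with the lowest values in normoxic control replicate 2 and eKD1 replicate 2 (61.2%).

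The 29 members were matched by gene symbol. The members, role groups and related lists were chosen with earlier results of these data known. The 15372 genes that reached 1 FPKM in 2 or more of the 8 libraries were tested with limma 3.58.1 in R 4.3.3 (lmFit, eBayes with trend) on log2(FPKM + 1), 2 libraries against 2, two-sided, with Benjamini-Hochberg adjustment over all genes tested. Since the values are log2(FPKM + 1), fold changes of low genes are understated. Single-library values are given for members called, for the 3 largest rises and falls of each comparison and for paralogs and subunits set side by side. Of related lists, counts are given, with values for PDK1 and up to 3 called genes per list and comparison. The fitting step was tested on simulated data. The fits were repeated without the filter, with a filter at a mean of 5 FPKM and with protein-coding genes alone, with a pseudocount of 0.1, with libraries rescaled by median-of-ratios or to equal totals, with all 8 libraries together, with a replicate block, without the variance trend, and without each library in turn. Overlapping genes were taken from GENCODE on GRCh37 and promoters from RefSeq on GRCh38.p14. No protein sequence was used here. A few genes of the related, marker and overlapping sets are not reported here.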

Additional observations from a re-analysis of the deposited data

Results flagged for a closer look

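PCK2 differed between the eKD lines. Its level was 32.3% of the hypoxic control mean in eKD1 and 281% of it in eKD2, and every eKD1 library lay below and every eKD2 library above both control libraries. Such separation was common: 26% of all genes lay lower without overlap in eKD1, and 35.8% lay higher without overlap in eKD2. Against control, the eKD1 difference was not called (limma adjusted p = 0.102) and the eKD2 difference was (adjusted p = 0.0273). PCK2 is listed here because it was called in the direct test of eKD2 against eKD1 in hypoxia, so that call is no separate support. The difference in that test was 2.99 ± 0.09 SE on the log2 scale (limma adjusted p = 0.0205, 2 libraries against 2). That call was made in 7 of the 9 alternatives that kept every library. Each line rests on 1 guide, so the enhancer, the guide and the pool of cells cannot be told apart.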

How the results depend on the processing

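The precision of each value is limited by 2 libraries per group. Fits of 2 libraries against 1 called 0 of the 15372 genes in any comparison, so these fits were too small to test stability. A fit that left out 1 library while keeping the 7 others together was added after seeing the data. It called PCK2 in 4 of 4 cases in hypoxia, in eKD2 against control and in eKD2 against eKD1, kept MPC2, DLAT, IDH3B, IDH2, MDH2 and ME1 in 4 of 4 in hypoxia, and SUCLA2 in 0 of 4.

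With 1 library left out in either way, the number of members called ranged from 0 to 11 in hypoxia, from 0 to 0 in eKD1 against control, from 0 to 1 in eKD2 against control and from 0 to 1 in eKD2 against eKD1. The highest number in hypoxia came without normoxic control replicate 2, in the fit that kept the 7 others together. That fit leaves 1 normoxic library, so no conclusion was drawn from its number of calls. The lowest number in hypoxia came from the fits of 2 libraries against 1, which were too small to test stability. Over all fits with 1 library left out, the members' median log2 change ranged from 0.11 to 0.19 in hypoxia. It ranged from -0.13 to -0.050 in eKD1 against control and from 0.091 to 0.21 in eKD2 against eKD1.

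In eKD1 against control, members called were 2 with all 8 libraries in 1 fit (PCK2 and IDH2, lower), where 4.95% of all genes were called. With protein-coding genes only, 1 member was called, against 1.27% of those genes. In eKD2 against control they were 0 with no filter, the replicate block and no variance trend (0.0995%, 0% and 0.182% of all genes called). They were 2, or 7.14% of members, with equal FPKM totals (12.4% of all genes) and with all 8 libraries in 1 fit (16.9%). They were 3 with a mean of at least 5 FPKM (11.1% of members, 16.5% of all genes) and with median-of-ratios rescaling (10.7% and 10.4%). With protein-coding genes only they were 4 (14.3% and 20.1%). PCK2 was among them wherever any member was called; the additions were PDHA1 and MDH2 (lower), DLD (higher) and IDH2 (lower). In eKD2 against eKD1 they were 0 with the replicate block and with no variance trend (0% and 0.0325% of all genes called). They were 2 with all 8 libraries in 1 fit (9.05% of all genes), where ME2 joined PCK2.

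The members' median log2 change with equal FPKM totals was -0.061 in hypoxia, -0.045 in eKD1 against control and 0.25 in eKD2 against control, and with median-of-ratios rescaling it was 0.077 in eKD2 against control. Equal FPKM totals moved the median of all genes by construction, to -0.19 in hypoxia and 0.14 in eKD2 against control.

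Of the hypoxia calls, SUCLA2 was lost with the replicate block (adjusted p = 0.0556) and with no variance trend (adjusted p = 0.0519), MDH2 with equal FPKM totals (adjusted p = 0.113) and no variance trend (adjusted p = 0.0587), and ME1 with no filter (adjusted p = 0.0710) and the replicate block (adjusted p = 0.0755). MPC2, DLAT, IDH3B, IDH2 and PCK2 were called under all 9 alternatives that kept every library. ME2 became a call with all 8 libraries in 1 fit (adjusted p = 0.0456). Unless stated, the cause of these changes was not tested.

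The replicate numbers were not shown to pair the samples. Deviations from the group means of same-numbered libraries correlated between -0.057 and 0.126 over the 15372 genes. The replicate block ended the calls of SUCLA2 and ME1 in hypoxia, where 16.7% of all genes were called with it. It also ended those of PCK2 in eKD2 against control and eKD2 against eKD1 (adjusted p = 0.0925 and 0.207). In both of these comparisons the block fit called 0 of the 15372 genes. No other call of a member changed.

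Signs that changed belonged to members that were not called. With equal FPKM totals, log2 changes became -0.17 for PDHA1, -0.078 for PDHX, -0.044 for IDH1, -0.10 for GLUD1 and -0.043 for GOT2 in hypoxia, 0.020 for MPC1, 0.051 for CS, 0.015 for OGDH and 0.018 for GOT2 in eKD1 against control, 0.020 for IDH3A and 0.047 for IDH3G in eKD2 against control, and 0.017 for PC in eKD2 against eKD1. With median-of-ratios rescaling they became -0.0033 for MDH1 in eKD1 against control, -0.053 for CS and -0.046 for FH in eKD2 against control, and -0.045 for PDHA1, -0.048 for PDHB, -0.011 for CS and -0.039 for MDH2 in eKD2 against eKD1.

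With 1 library left out, some log2 changes had ranges that crossed 0. In hypoxia they were -0.084 to 0.00070 for PDHB, -0.35 to 0.15 for IDH3A and -0.016 to 0.28 for GLUD1. In eKD1 against control they were -0.29 to 0.19 for MPC1, -0.30 to 0.015 for PDHX, -0.10 to 0.32 for DLD, -0.068 to 0.028 for CS, -0.26 to 0.050 for SUCLA2, -0.0090 to 0.048 for MDH1, -0.11 to 0.18 for GLUD1 and -0.31 to 0.049 for D2HGDH. In eKD2 against control they were -0.12 to 0.16 for CS, -0.34 to 0.17 for IDH3A, -0.18 to 0.066 for IDH3G and -0.042 to 0.093 for FH. In eKD2 against eKD1 they were -0.047 to 0.44 for MPC1, -0.016 to 0.024 for PDHA1, -0.092 to 0.092 for PDHB, -0.16 to 0.13 for PC, -0.10 to 0.18 for CS, -0.18 to 0.025 for IDH3B, -0.053 to 0.19 for IDH3G, -0.11 to 0.025 for IDH1 and -0.037 to 0.058 for MDH2.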
